A study of Mus musculus with 4 samples.

Results

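The genes described here are 10 genes of cytokine signalling, 6 encoding receptor chains (Il7r, Il2rb, Il2rg, Il4ra, Il6ra and Il21r) and 4 encoding feedback inhibitors (Cish, Socs1, Socs2 and Socs3). They were chosen by name from the 31053 genes of the count matrices, with earlier results of these data known. All 10 had UMIs in every library. The data are droplet 3′ RNA counts of single thymocytes from FVB/N mice. WT was a wild type thymus at 6 weeks, and the preleukemic (PL) library was a Tal1/Lmo2 transgenic thymus at 6 weeks. T-ALL#1 and T-ALL#2 were leukemic thymi of Tal1/Lmo2 mice at 3 months and form the leukemic group. Both transgenes, which encode oncogenic transcription regulators, are driven by the proximal Lck promoter, which is active in thymocytes. Viable cells negative for the dye 7-AAD were sorted before capture. WT and PL had 1 library each and the sources do not say how many animals gave a library, so genotype, disease stage, age and library cannot be told apart and no test was made between groups.

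Cytokine receptors of this family have no kinase of their own. They hold JAK kinases, which phosphorylate STAT transcription factors once a ligand such as IL-7, IL-2, IL-4 or IL-21 joins a private chain with the common gamma chain, or IL-6 joins its receptor chain with gp130. STAT proteins then switch on Cish and the Socs genes, whose SH2-domain products bind the receptor or the JAK and damp the signal. In the thymus, IL-7 receptor signalling is known for keeping early double-negative thymocytes and mature single-positive cells alive, and it is low at the double-positive stage.

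Levels are given as CPM, the UMIs of a gene per 1000000 UMIs summed over the cells named. Cells with more than 500 genes and under 10% mitochondrial UMIs were kept, and in T-ALL#2, whose matrix holds every barcode, cells also had at least 3416 UMIs. This kept between 1975 cells (T-ALL#2) and 5773 cells (T-ALL#1) per library, with 24042062 UMIs in WT to 70745712 UMIs in T-ALL#1. The median depth rose from 3800.5 UMIs per cell in WT to 17581 in T-ALL#2. All 8 thymocyte markers tested (among them Cd3e, Lck and Thy1) were detected in each library. Tal1 was at 0 UMIs in WT and at 68.3 to 410 CPM in the transgenic libraries, as a check of the genotype. The sex labels were not all borne out. WT and PL, both labelled male, held Xist at 1380 and 1869 CPM and 1 and 5 UMIs in all of 4 Y-linked genes, whereas T-ALL#2, labelled male, held 4413 Y-linked UMIs. T-ALL#1 held Xist at 1932 CPM and 1 Y-linked UMI. More libraries were thus labelled male than held more than 5 Y-linked UMIs. The reason for the mismatch was not tested. Of all kept barcodes, at most 9 were shared by a pair of libraries. Every interval given with a level is an exact Poisson 95% interval and covers counting error only.

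The 8 members matched in RefSeq (build GRCm38.p6) were searched for the STAT-type motif TTCNNNGAA, which reads the same on both strands, in the 300 bases from 250 before to 50 after the annotated start. The promoters of Cish, Socs3 and Il7r held it, and 8.30% of all 32851 promoters of this length did. They are shown because Cish and Socs3 are textbook STAT targets, with the motif in capitals. Cish held 2 copies, at the start itself and 11 bases further, and 0.457% of all promoters held 2 or more. The copy of Socs3 lies 154 bases and that of Il7r 142 bases before the start. These RefSeq starts lie 633 bases (Cish), 681 bases (Socs3) and 300 bases (Il7r) inside the gene spans of the GENCODE annotation given with the levels, so the windows lie within those spans. A match is a match of letters alone. Il2rg, Il4ra, Il6ra, Il21r and Socs1 had no match in this window, and Il2rb and Socs2 were not matched.
Cish, chr9:107296409-107296708, plus strand: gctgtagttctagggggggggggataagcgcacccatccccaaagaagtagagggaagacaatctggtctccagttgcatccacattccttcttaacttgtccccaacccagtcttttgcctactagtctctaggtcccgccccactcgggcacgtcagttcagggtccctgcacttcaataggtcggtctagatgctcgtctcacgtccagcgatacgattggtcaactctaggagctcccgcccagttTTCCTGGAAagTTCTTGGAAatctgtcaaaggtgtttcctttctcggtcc
Socs3, chr11:117969317-117969616, minus strand: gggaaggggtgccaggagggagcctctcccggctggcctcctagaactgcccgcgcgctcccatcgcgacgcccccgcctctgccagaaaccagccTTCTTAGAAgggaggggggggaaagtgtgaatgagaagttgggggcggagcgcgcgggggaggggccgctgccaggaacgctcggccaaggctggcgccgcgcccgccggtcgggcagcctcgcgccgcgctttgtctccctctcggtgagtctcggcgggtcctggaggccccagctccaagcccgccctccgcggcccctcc
Il7r, chr15:9529827-9530126, minus strand: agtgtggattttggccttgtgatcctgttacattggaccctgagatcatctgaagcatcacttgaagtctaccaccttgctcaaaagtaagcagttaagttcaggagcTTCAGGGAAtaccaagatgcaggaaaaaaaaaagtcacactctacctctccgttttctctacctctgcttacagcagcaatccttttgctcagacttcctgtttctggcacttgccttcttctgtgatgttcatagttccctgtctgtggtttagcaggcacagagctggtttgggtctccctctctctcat

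Between libraries, the 6 receptor genes, Cish and Socs1 were highest in WT, and Socs3 was highest in the leukemias. WT held the highest CPM for 8 of the 10 members, PL for Socs2 and T-ALL#1 for Socs3. T-ALL#2 held the lowest CPM for 7 of the 10. In such sums, fewer cells of a type and less RNA of the gene per cell cannot be told apart. The same count of 8 with WT highest was found in non-cycling cells alone and in cycling cells alone, and it was 9 in double-positive cells and 9 in cells with Cd8a alone. These counts rest on order alone, and the share of all genes with the same order was not counted. TMM scaling raised T-ALL#2 against WT by 0.55 on the log2 scale. Il2rg in double-positive cells overlapped, at 166 CPM (158 to 173) in WT and 160 CPM (143 to 179) in PL. In Il2ra-detected double-negative cells it was at 99.1 CPM (78.2 to 124) and 121 CPM (112 to 130). There WT and PL overlapped for Il7r, Il21r, Il4ra and Il6ra too. WT was higher there, beyond the intervals, for Il2rb, Cish, Socs1, Socs2 and Socs3.

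Il7r (ENSMUSG00000003882, chr15:9505788-9530176, minus strand, GRCm38) encodes the IL-7 receptor alpha chain. Its level was 114 CPM (110 to 119) in the WT thymus, 33.9 CPM (32.2 to 35.8) in PL and 32.8 CPM (31.5 to 34.2) in T-ALL#1, followed by T-ALL#2 at 17.5 CPM (16.2 to 18.9). WT stood above the others, and the preleukemic and T-ALL#1 intervals overlapped. Il2rg (ENSMUSG00000031304, chrX:101264378-101268255, minus strand) encodes the common gamma chain shared by the IL-2, IL-4, IL-7 and IL-21 receptors. It fell in steps that did not overlap, from 231 CPM (225 to 237) to 172 CPM (168 to 176), 69.1 CPM (67.2 to 71.1) and 55.6 CPM (53.2 to 58.1) in the same order of libraries. After each cell was thinned to 2000 UMIs, Il2rg was detected in 40.1%, 34.0%, 17.1% and 13.2% of cells.

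Il21r (ENSMUSG00000030745, chr7:125603429-125633570, plus strand), the private chain for IL-21, showed the same stepwise order. It was at 180 CPM (175 to 186) in the WT thymus, 85.9 CPM (83.1 to 88.8) in PL and 41.3 CPM (39.8 to 42.8) in T-ALL#1, followed by T-ALL#2 at 15.4 CPM (14.2 to 16.8). Il4ra (ENSMUSG00000030748, chr7:125552120-125579474, plus strand), the chain that binds IL-4, was at 47.3 CPM (44.6 to 50.2) in WT. It was at 4.21 CPM (3.60 to 4.89) in PL and 5.67 CPM (5.13 to 6.25) in T-ALL#1, followed by T-ALL#2 at 1.21 CPM (0.882 to 1.63). The PL level of Il4ra was thus 11.2-fold (9.57 to 13.3) below WT.

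Il6ra (ENSMUSG00000027947, chr3:89864059-89913196, minus strand), the IL-6 binding chain, had the widest gap between WT and PL, at 23.6 CPM (21.7 to 25.7) against 1.30 CPM (0.972 to 1.70), an 18.2-fold (13.7 to 24.6) lower level. T-ALL#1, at 1.41 CPM (1.15 to 1.72), overlapped the preleukemic interval, and T-ALL#2 was at 2.81 CPM (2.30 to 3.42). Il6ra was highest in cells with Cd4 alone in WT and PL (65.2 and 26.4 CPM). These cells made up 21.7% of WT and 0.825% of PL cells. In double-negative cells without Il2ra it was at 39.9 CPM in WT and 0.965 CPM in PL. Il2rb (ENSMUSG00000068227, chr15:78479256-78495271, minus strand), the beta chain of the IL-2 and IL-15 receptors, was at 21.3 CPM (19.5 to 23.2) in the WT thymus, 7.56 CPM (6.74 to 8.46) in PL and 6.93 CPM (6.33 to 7.57) in T-ALL#1, followed by T-ALL#2 at 4.00 CPM (3.38 to 4.71). Its preleukemic and T-ALL#1 intervals overlapped.

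Among the feedback genes, Cish (ENSMUSG00000032578, chr9:107296026-107302784, plus strand), a STAT5-induced inhibitor, was at 10.1 CPM (8.88 to 11.5) in WT and 2.74 CPM (2.26 to 3.30) in PL. It was at 0.565 CPM (0.404 to 0.770) in T-ALL#1, followed by T-ALL#2 at 0.221 CPM (0.0953 to 0.435), on 40 and 8 UMIs. Socs1 (ENSMUSG00000038037, chr16:10782240-10785536, minus strand), which inhibits JAK kinases directly, was at 134 CPM (129 to 138), 38.0 CPM (36.1 to 39.9), 39.5 CPM (38.0 to 41.0) and 22.0 CPM (20.5 to 23.6) in the order WT, preleukemic, T-ALL#1 and T-ALL#2. Both genes were lowest in T-ALL#2, the T-ALL#1 over T-ALL#2 ratio being 2.56 (1.18 to 6.33) for Cish and 1.79 (1.66 to 1.94) for Socs1.

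Socs2 (ENSMUSG00000020027, chr10:95385362-95417180, minus strand), best known for restraining growth hormone signalling, was at 4.16 CPM (3.38 to 5.06) in WT and 7.42 CPM (6.61 to 8.30) in PL, a ratio of 1.78 (1.42 to 2.26). It was at 0.396 CPM (0.263 to 0.572) in T-ALL#1, followed by T-ALL#2 at 1.21 CPM (0.882 to 1.63). Socs3 (ENSMUSG00000053113, chr11:117966079-117970047, minus strand), the feedback inhibitor of gp130 signalling, was at 5.37 CPM (4.48 to 6.38) in WT and 1.37 CPM (1.04 to 1.78) in PL. It was at 24.2 CPM (23.1 to 25.4) in T-ALL#1, followed by T-ALL#2 at 8.17 CPM (7.26 to 9.15). Both leukemias stood above both other libraries for Socs3, by 17.7-fold (13.5 to 23.5) in T-ALL#1 and 5.96-fold (4.47 to 8.08) in T-ALL#2 over the PL level.

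**Figure D1:**
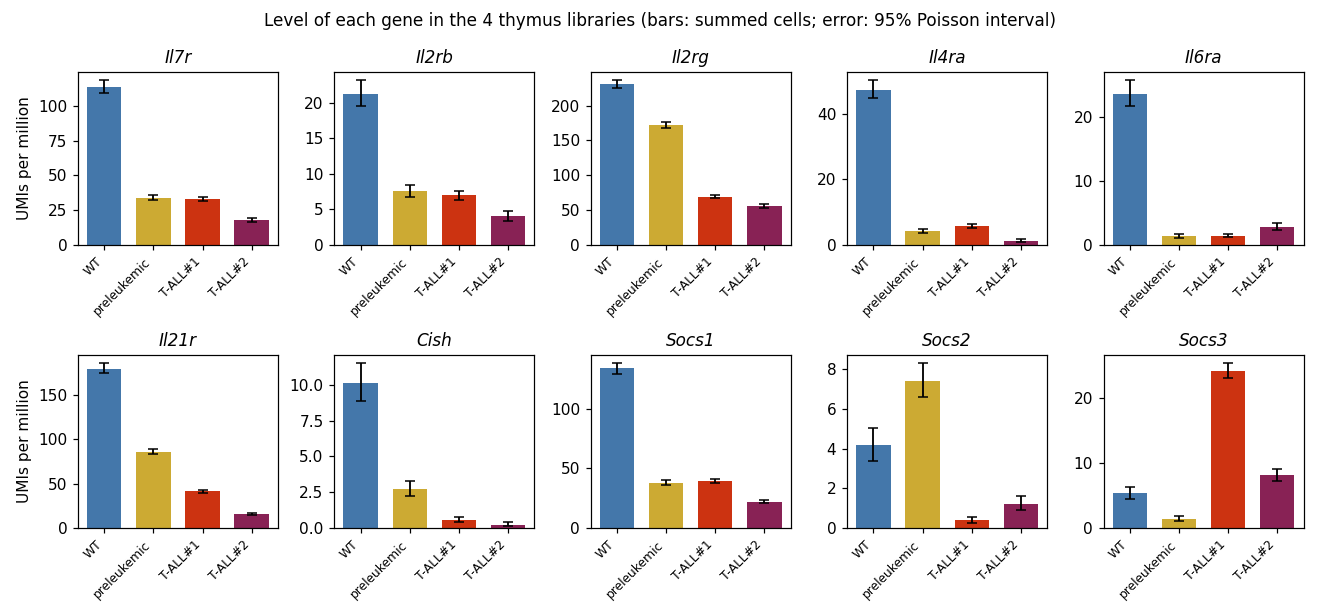
Level of each of the 10 genes in WT, PL, T-ALL#1 and T-ALL#2, as CPM on linear axes that start at 0 (bars, all kept cells summed; error bars, 95% Poisson intervals; 1 library per bar). WT has the tallest bar in 8 of the 10 panels, the exceptions being Socs2 (preleukemic, 7.42) and Socs3 (T-ALL#1, 24.2).

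Among genes with at least 5 CPM in a library of the pair, a fold of 2 or more was counted as a call. From WT to PL, 8 of the 10 members were lower by this rule and 0 higher, where 5.89% of 9680 genes were lower and 5.13% higher. From PL to T-ALL#1, 3 of the 8 members above 5 CPM were lower (Il2rg, Il21r and Socs2) and 1 higher (Socs3), where 13.3% of 9620 genes were lower and 5.36% higher. From PL to T-ALL#2, 3 of the 7 members above 5 CPM were lower (Il2rg, Il21r and Socs2) and 1 higher (Socs3), where 28.5% of 9569 genes were lower and 4.64% higher. TMM scaling raised every leukemic level against PL, by 0.26 on the log2 scale in T-ALL#1 and 0.50 in T-ALL#2, and with it the same comparisons counted 2 members (T-ALL#1) and 3 members (T-ALL#2) as lower and 1 each as higher. Under 5 CPM and so not counted, Cish was 4.85-fold (3.35 to 7.14) below PL in T-ALL#1 and 12.4-fold (6.09 to 29.5) below it in T-ALL#2. In T-ALL#2 alone this held also for Il4ra (3.47-fold lower) and for Il6ra, which was above PL at a ratio of 2.17 (1.54 to 3.08).

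Cells with UMIs of at least 2 markers of 1 list (NK and NKT, regulatory T, gamma-delta T, B or myeloid cells) made up 71.2% of PL, 16.5% of WT, 31.3% of T-ALL#1 and 72.2% of T-ALL#2 cells. The gamma-delta list, which holds constant genes that other thymocytes transcribe too, alone marked 65.7% of PL and 62.4% of T-ALL#2 cells. Without all these cells, 7 members were at least 2-fold lower in PL than WT, of which Cish and Socs3 (ratios of 0.451 and 0.384) were under 5 CPM in both libraries, and Il21r was at a ratio of 0.550. The share of all genes past this fold without these cells was not counted. The PL over WT ratio of Il7r was 0.0557 (0.0407 to 0.0743). The cells left out held 96.6% of the Il7r UMIs of PL against 35.6% of those of WT. Of the UMIs of all genes, these cells held 81.0% in PL and 32.2% in WT, above their shares of cells, so on average they were deeper than the other cells. They held all but 4 of the 303 Socs2 UMIs of PL and all but 1 of the 100 of WT, which left a PL over WT ratio of 8.38 (0.829 to 413) that could not be told from 1. Their part in the differences between libraries was not tested. In T-ALL#2, 1187978 barcodes with fewer than 100 UMIs served as a measure of free RNA. The interval of the ratio of cells over these barcodes included 1 for 9 of the 10 members, Il2rg being higher in cells at a ratio of 1.31 (1.04 to 1.67), and these barcodes held 1814232 UMIs in all.

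By stage, cells were grouped by detected UMIs of Cd4, Cd8a and Il2ra. A gate of this kind follows depth, since a shallow cell can miss a coreceptor it expresses, and the median depth of WT cells was 8995.5 UMIs in Il2ra-detected double-negative cells and 2889.5 in double-positive cells. The double-positive share was 49.7% of cells in WT, 3.60% in PL, 41.7% in T-ALL#1 and 12.3% in T-ALL#2.

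Il7r followed the known course of the stages in WT. It was at 109 CPM (87.4 to 135) in the 54 Il2ra-detected double-negative cells, 40.0 CPM (36.4 to 43.9) in double-positive cells and 261 CPM (248 to 275) in cells with Cd4 alone. In PL it was at 93.8 CPM (86.1 to 102) in Il2ra-detected double-negative cells and 14.9 CPM (10.1 to 21.3) in double-positive cells. In T-ALL#1 the same pair of levels was 52.6 CPM (47.2 to 58.5) and 19.6 CPM (17.8 to 21.5). T-ALL#2 had the reverse order, at 17.2 CPM (14.8 to 19.9) and 24.0 CPM (19.1 to 29.9), a log2 ratio of 0.48 (0.09 to 0.87), and its highest Il7r level, 51.5 CPM (41.9 to 62.7), was in cells with Cd4 alone. The fit over the 4 libraries gave a log2 difference of -1.32 (SE 0.483) for double-positive minus Il2ra-detected double-negative cells, which did not pass the test (edgeR adjusted p = 0.158).

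Il4ra was the receptor gene called between double-positive and Il2ra-detected double-negative cells. In double-positive cells it was at 51.4 CPM (47.3 to 55.8) in the WT thymus, 7.47 CPM (4.18 to 12.3) in PL and 9.57 CPM (8.34 to 10.9) in T-ALL#1, followed by T-ALL#2 at 3.56 CPM (1.84 to 6.22). In Il2ra-detected double-negative cells it was at 2.57 CPM (0.312 to 9.30), 0.874 CPM (0.284 to 2.04), 1.84 CPM (0.953 to 3.22) and 0.847 CPM (0.387 to 1.61) in that order, on 2 to 12 UMIs. Double-positive cells were higher in 4 of 4 libraries, and the fitted log2 difference was 2.68 (SE 0.337, edgeR adjusted p = 0.0241). The call was lost without PL (adjusted p = 0.120) and in cells thinned to 2000 UMIs (adjusted p = 0.0734), within a range of 6.01e-06 to 0.420 over the alternatives.

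Socs1 was the other member called in this comparison. It was at 170 CPM (163 to 178), 78.2 CPM (66.5 to 91.5), 56.6 CPM (53.5 to 59.7) and 38.9 CPM (32.5 to 46.2) in double-positive cells of WT, PL, T-ALL#1 and T-ALL#2. Il2ra-detected double-negative cells held 100 CPM (79.3 to 125), 44.0 CPM (38.8 to 49.8), 27.1 CPM (23.2 to 31.4) and 18.8 CPM (16.3 to 21.6). The levels did not overlap within any library, and the fitted log2 difference was 0.85 (SE 0.107, edgeR adjusted p = 0.0241). The call was lost without PL, without T-ALL#1 and without T-ALL#2 (adjusted p of 0.120, 0.0667 and 0.0576), with the upper limit on genes and in non-cycling cells alone, within a range of 5.79e-06 to 0.552 over the alternatives. In all, 2 of the 8 members tested were higher and 0 lower, where 1.61% of 10403 genes were higher and 1.25% lower. The median log2 difference of the 8 members was 0.57, and that of all genes tested 0.01.

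Il21r and Il2rg were higher in double-positive cells of 4 of 4 libraries too, with log2 differences of 0.84 (SE 0.176, edgeR adjusted p = 0.0514) and 0.47 (SE 0.0979, edgeR adjusted p = 0.0502), neither of which passed the test. With cells thinned to 2000 UMIs and gated anew, Il21r was called (0.93, edgeR adjusted p = 0.0339). Il2rg was at 0.02 there (edgeR adjusted p = 0.991). Il21r in WT was at 227 CPM (218 to 236) in double-positive cells and 75.9 CPM (57.8 to 97.9) in Il2ra-detected double-negative cells. Il2rb was at 85.6 CPM (73.0 to 99.7) in WT double-negative cells without Il2ra, above every other gate of any library, and at 1.49 to 4.53 CPM in double-positive cells of the 4 libraries. That WT level came from 53 of 385 cells. Over all WT gates, cells with at least 2 markers of 1 other cell type held 79.5% of the Il2rb UMIs and 32.2% of all UMIs. Il6ra was at 65.2 CPM (58.7 to 72.2) in WT cells with Cd4 alone and 26.4 CPM (13.2 to 47.3) in the 46 PL cells with Cd4 alone, against 1.03 CPM (0.125 to 3.72) in those of T-ALL#2.

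Socs2 was highest in the Il2ra-detected double-negative cells of WT and PL. It was at 51.5 CPM (36.8 to 70.1) there in WT, on 40 UMIs in 23 of 54 cells, and at 29.7 CPM (25.4 to 34.5) in PL, on 170 UMIs in 78 of 465 cells. In every other gate of these libraries it was at most 5.70 CPM. In the same gate it was at 0.922 CPM (0.339 to 2.01) in T-ALL#1, followed by T-ALL#2 at 1.22 CPM (0.651 to 2.09). Cish too was at 33.5 CPM (21.9 to 49.0) in WT Il2ra-detected double-negative cells, at 7.51 CPM (5.44 to 10.1) in those of PL and at most 0.922 CPM in those of the leukemias. Neither Cish nor Socs2 had enough UMIs for the main fit between double-positive and Il2ra-detected double-negative cells. Both were lower in double-positive cells of 4 of 4 libraries, Cish in T-ALL#2 on 0 against 3 UMIs. Of the alternative edgeR fits, 1 of 3 called Cish (adjusted p = 0.00284). The 1 that held Socs2 called it (edgeR adjusted p = 0.000564).

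Socs3 had a different stage order in the leukemias. In double-positive cells it was at 4.35 CPM (3.20 to 5.76) in the WT thymus, 1.99 CPM (0.543 to 5.10) in PL and 34.0 CPM (31.6 to 36.5) in T-ALL#1, followed by T-ALL#2 at 12.5 CPM (8.99 to 16.9). In Il2ra-detected double-negative cells it was at 29.6 CPM (18.8 to 44.4) in WT on 23 UMIs, 2.45 CPM (1.34 to 4.10) in PL and 15.7 CPM (12.8 to 19.0) in T-ALL#1, followed by T-ALL#2 at 6.21 CPM (4.80 to 7.90). WT was thus higher in the double-negative gate and both leukemias in the double-positive gate. Across libraries the log2 difference was 0.03 (SE 0.735, edgeR adjusted p = 0.988).

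**Figure D2:**
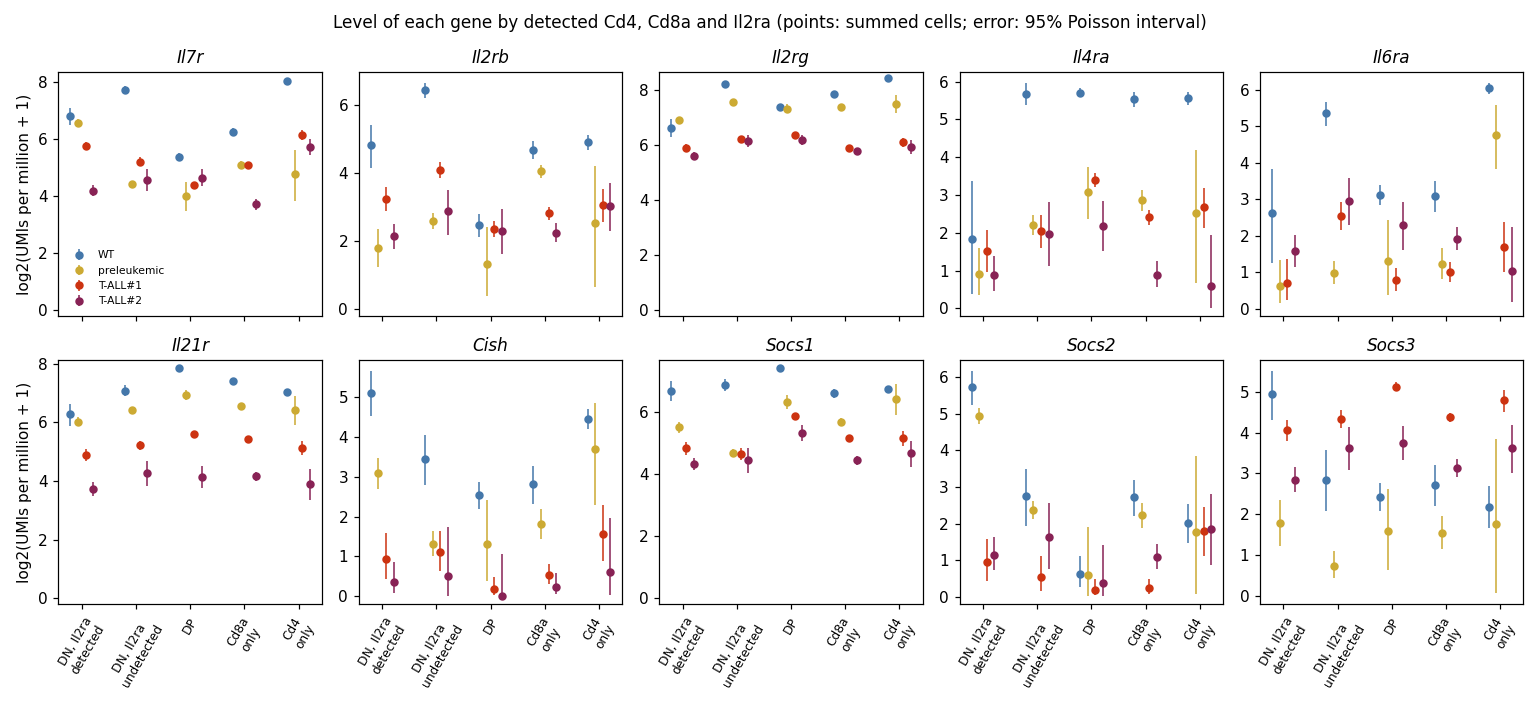
Level of each gene by gate (DN, double-negative; DP, double-positive), as log2 of CPM plus 1, for the 4 libraries (points, summed cells; error bars, 95% Poisson intervals). The WT and preleukemic points of Socs2 stand apart in the Il2ra-detected gate (51.5 and 29.7 CPM), and the T-ALL#1 points of Socs3 are above WT in every gate but that one.

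Between Il2ra-detected and undetected double-negative cells, 0 of the 9 members tested were called by edgeR, where 0.00951% of 10511 genes were higher and 0.0190% lower. Without adjustment, 6 of the 9 members and 2433 genes had p under 0.05, DESeq2 called 1 member, and edgeR on every gene with at least 1 UMI called 7. Il2rb, Il2rg, Il4ra, Il6ra and Il21r were each lower with Il2ra in 4 of 4 libraries. Their log2 differences were -1.11 (SE 0.200), -0.72 (SE 0.193), -1.98 (SE 0.479), -2.21 (SE 0.392) and -0.47 (SE 0.132), with edgeR adjusted p between 0.119 and 0.129. Il2ra-detected cells were deeper in every library, at a median of 8995.5 against 4257 UMIs in WT and 9958 against 4270 in PL. With cells thinned to 2000 UMIs and gated anew, the differences of Il2rg and Il21r were -0.06 and -0.03. Socs2 had a log2 difference of 2.44 (SE 0.563, edgeR adjusted p = 0.119) and was higher in 3 of 4 libraries.

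In cells with an S1pr1 UMI, most receptor genes and Cish were higher. S1pr1 encodes the receptor that mature thymocytes use to leave the thymus. It was detected in 470 WT cells (11.1%), 226 PL cells (4.05%), 122 T-ALL#1 cells (2.11%) and 52 T-ALL#2 cells (2.63%). Of the 10 members, 6 were higher in these cells and 0 lower, where 8.75% of 11412 genes were higher and 11.4% lower. The median log2 difference of the members was 0.92, and that of all genes tested -0.03.

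Il6ra changed most. It was at 91.7 CPM in S1pr1-detected against 12.1 CPM in undetected cells of WT, 15.5 against 0.786 CPM in PL, 25.6 against 1.06 CPM in T-ALL#1 and, in T-ALL#2, 22.3 against 2.42 CPM. The levels did not overlap within any library, and the log2 difference was 3.63 (SE 0.272, edgeR adjusted p = 1.26e-06). In cells thinned to 2000 UMIs, Il6ra was detected in 20.5% (15.6 to 26.0) of the S1pr1-detected and 2.82% (2.25 to 3.48) of the undetected WT cells, with 0.585% (0.215 to 1.27) in WT double-positive cells. In PL these shares were 0.943% (0.0239 to 5.14, 1 cell) and 0.254% (0.135 to 0.434), which overlapped.

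Il2rb was at 57.2 against 15.2 CPM in WT, 45.9 against 6.19 CPM in PL, 42.3 against 6.41 CPM in T-ALL#1 and, in T-ALL#2, 12.5 against 3.83 CPM. Its log2 difference was 2.39 (SE 0.206, edgeR adjusted p = 1.23e-06). Thinned in the same way, Il7r was detected in 24.1% (18.9 to 29.9) of S1pr1-detected and 13.4% (12.2 to 14.7) of undetected WT cells, and in 2.54% (1.66 to 3.69) of double-positive WT cells, a stage known for low levels of it. Il7r was at 174 against 104 CPM, 81.3 against 32.2 CPM, 80.7 against 32.1 CPM and 22.3 against 17.4 CPM in the same order, with overlapping intervals in T-ALL#2 alone (log2 difference 1.02, SE 0.150, edgeR adjusted p = 0.000153). Il2rg was at 327 against 215 CPM, 266 against 169 CPM, 132 against 68.2 CPM and 80.8 against 55.1 CPM (log2 difference 0.70, SE 0.115, edgeR adjusted p = 0.000390). For these 3 chains S1pr1-detected cells were higher in 4 of 4 libraries.

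Cish was at 23.9 against 7.78 CPM in WT, 16.3 against 2.26 CPM in PL and 3.94 against 0.516 CPM in T-ALL#1. In T-ALL#2 it had 0 UMIs in S1pr1-detected cells and 8 in the others. Its log2 difference was 2.26 (SE 0.382, edgeR adjusted p = 0.000496). Socs3 was higher in 4 of 4 libraries, at 7.76 against 4.96 CPM, 5.65 against 1.22 CPM, 42.3 against 24.0 CPM and 15.3 against 8.02 CPM (log2 difference 0.98, SE 0.254, edgeR adjusted p = 0.0110). The Socs3 intervals of both groups of cells overlapped in WT and in T-ALL#2, and the call was lost without T-ALL#1 (adjusted p = 0.0527, range 0.00597 to 0.807 over the alternatives).

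Il4ra, Il21r, Socs1 and Socs2 were not called. Their log2 differences were 0.86 (SE 0.452), 0.16 (SE 0.143), -0.03 (SE 0.362) and 0.24 (SE 0.626), with edgeR adjusted p of 0.254, 0.705, 0.969 and 0.846. Socs1 was at 60.7 against 146 CPM in WT, the reverse of T-ALL#2, where it was at 43.2 against 21.6 CPM.

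**Figure D3:**
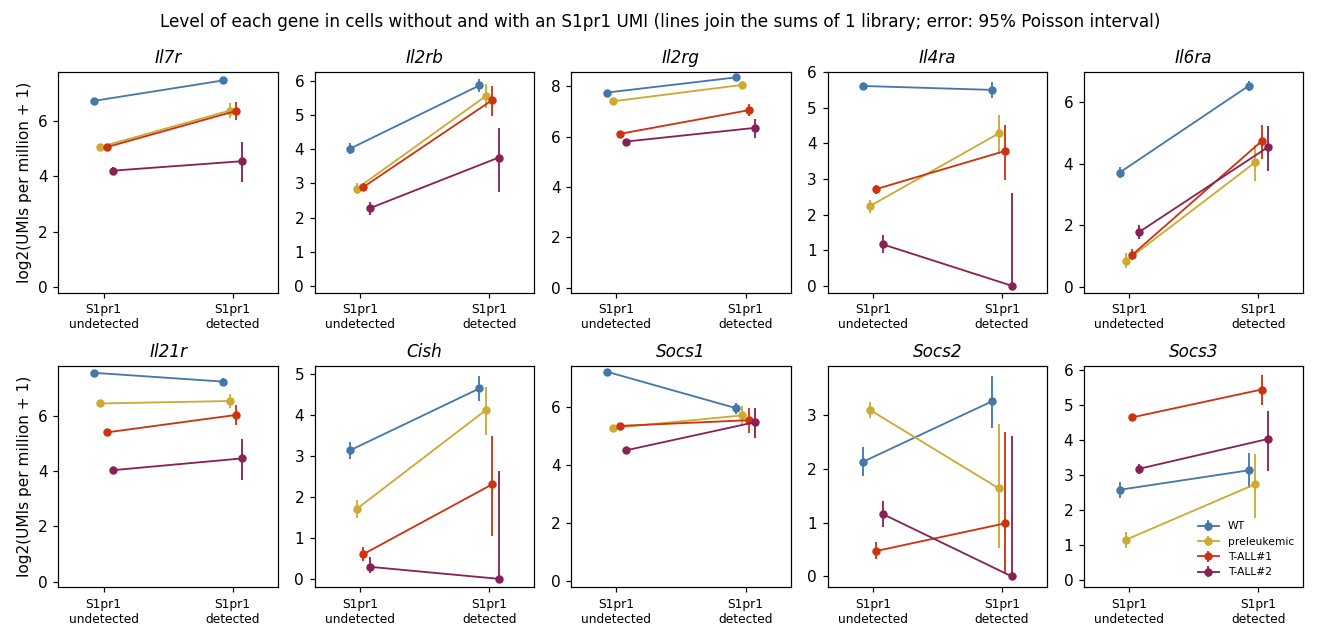
Level of each gene in cells without and with an S1pr1 UMI, as log2 of CPM plus 1 (points, summed cells of 1 library, joined by a line; error bars, 95% Poisson intervals). All 4 lines rise for Il7r, Il2rb, Il2rg, Il6ra and Socs3, and the Socs1 line of WT falls (146 to 60.7 CPM).

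Non-cycling cells alone kept 4 of the 6 calls, those of Il7r, Il2rb, Il6ra and Cish, and cells thinned to 2000 UMIs, where T-ALL#2 could not be fitted for want of cells, lost those of Il2rg and Socs3. In the thinned cells Socs1 was called lower with S1pr1 (log2 difference -0.87, edgeR adjusted p = 0.0478), as it was with at least 2 S1pr1 UMIs (-0.69, edgeR adjusted p = 0.0247), where T-ALL#2 could not be fitted either. In non-cycling cells with UMIs of Cd4 or Cd8a but not both, an alternative added after the data were seen, 2 of the 6 were called, Il6ra and Il2rb. There the log2 differences of Il7r and Il2rg were 0.62 and 0.17, with adjusted p of 0.539 and 0.589, within ranges over the alternatives of 1.41e-07 to 0.539 and 6.30e-07 to 0.593. S1pr1-detected cells also differed in depth and in markers of other cells. Their median depth was 6648 against 3387.5 UMIs in WT, 4902 against 4888 in PL, 6277 against 8891 in T-ALL#1 and, in T-ALL#2, 12597.5 against 17787. The summed level of 7 NK and NKT markers was 155, 269, 85.6 and 4.18 CPM in them and 61.5, 63.3, 9.18 and 2.03 CPM in the other cells (WT, preleukemic, T-ALL#1 and T-ALL#2), with 5 of the 7 at 0 in S1pr1-detected T-ALL#2 cells. The 5 regulatory T markers summed to 547 to 999 CPM against 262 to 858 CPM, with Foxp3 at 0 in the S1pr1-detected cells of both leukemias, and the 5 B markers to 1.39 to 92.5 CPM against 3.99 to 14.3 CPM. The B markers were higher with S1pr1 in PL (81.3 against 14.3 CPM) and T-ALL#1 (92.5 against 3.99 CPM). They were lower in WT (5.17 against 11.7 CPM) and in T-ALL#2. The 5 gamma-delta markers, summed, were lower with S1pr1 in WT (102 against 342 CPM) and PL (1602 against 2163 CPM). They were higher in T-ALL#1 (500 against 157 CPM) and T-ALL#2 (386 against 310 CPM). The 8 myeloid markers summed to 79.4 to 130 CPM against 85.3 to 230 CPM. Only in T-ALL#1 were the myeloid markers higher with S1pr1 (100 against 93.7 CPM). The part of depth and of all these markers in the result was not tested.

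In cycling cells 5 of the 6 receptor genes were lower, with Cish and Socs3. Cells were called cycling by a 2-means split of their UMIs of 43 S-phase and 54 G2/M-phase genes, at 81.2 per 10000, which gave 14.9% of WT, 20.5% of preleukemic, 38.4% of T-ALL#1 and 39.4% of T-ALL#2 cells. Cycling cells were deeper, with a median of 12018 against 3417.5 UMIs in WT and 25620 against 12617 in T-ALL#2. Of the 10 members, 7 were lower and 0 higher, where 27.9% of 11743 genes were lower and 26.4% higher, and the median log2 difference was -0.99 for the members and -0.05 for all genes tested. With each cell thinned to 2000 UMIs, 7 members were again called lower and 4666 genes were called in place of 6380. Il2rb (-2.13), Il2rg (-0.96), Il4ra (-1.95), Il6ra (-1.74), Il21r (-0.45) and Socs3 (-1.41) were called in both, Socs1 (-0.71, edgeR adjusted p = 0.0399) was called there, and Cish had too few UMIs to be tested.

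Il4ra was at 12.4 CPM in cycling against 68.5 CPM in non-cycling cells of WT, 1.25 against 6.29 CPM in PL, 1.94 against 13.0 CPM in T-ALL#1 and, in T-ALL#2, 0.704 against 1.84 CPM. Cycling cells were lower in 4 of 4 libraries, with no overlap of intervals, and the log2 difference was -2.18 (SE 0.190, edgeR adjusted p = 0.000500). Il2rg was at 109 against 305 CPM, 91.3 against 229 CPM, 46.0 against 115 CPM and 44.6 against 69.0 CPM in that order (log2 difference -1.01, SE 0.126, edgeR adjusted p = 0.00116). Il2rb was at 4.73 against 31.4 CPM, 0.593 against 12.5 CPM, 3.54 against 13.6 CPM and 2.01 against 6.42 CPM (log2 difference -2.32, SE 0.367, edgeR adjusted p = 0.00287).

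Il6ra was at 6.82 against 33.8 CPM in WT, 0.0593 against 2.17 CPM in PL, 0.298 against 3.61 CPM in T-ALL#1 and, in T-ALL#2, 1.31 against 4.65 CPM (log2 difference -2.51, SE 0.351, edgeR adjusted p = 0.00167). Il21r moved least of those called, at 134 against 209 CPM, 67.8 against 98.6 CPM, 33.5 against 56.8 CPM and 14.6 against 16.5 CPM (log2 difference -0.35, SE 0.0943, edgeR adjusted p = 0.0186), and its T-ALL#2 intervals overlapped. Leaving out WT, PL or T-ALL#1 ended the Il21r call, with adjusted p of 0.0646, 0.0523 and 0.107 in a range of 0.00531 to 0.767 over the alternatives.

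Il7r was the receptor gene not called. It was at 34.9 against 162 CPM in WT, 23.8 against 41.1 CPM in PL and 14.7 against 20.9 CPM in T-ALL#2, but at 34.5 against 29.6 CPM in T-ALL#1. The log2 difference was -0.62 (SE 0.368, edgeR adjusted p = 0.192).

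Of the feedback genes, Cish was at 4.07 against 13.8 CPM in WT, 1.07 against 3.92 CPM in PL and 0.192 against 1.30 CPM in T-ALL#1, and at 5 against 3 UMIs in T-ALL#2 (log2 difference -1.61, SE 0.353, edgeR adjusted p = 0.00881). Socs3 was at 1.98 against 7.42 CPM in WT, 1.36 against 1.38 CPM in PL, 13.9 against 44.6 CPM in T-ALL#1 and, in T-ALL#2, 6.43 against 10.3 CPM. Its log2 difference was -0.98 (SE 0.287, edgeR adjusted p = 0.0259), and the call was lost without WT or without T-ALL#1, with adjusted p of 0.0577 and 0.162 in a range of 0.000360 to 0.496. Socs1 and Socs2 were not called, at log2 differences of -0.51 (SE 0.277, edgeR adjusted p = 0.163) and -0.77 (SE 0.495, edgeR adjusted p = 0.226). Both were higher in cycling cells of PL and lower in those of the other libraries. Without PL both were called lower, Socs1 at -0.85 (edgeR adjusted p = 0.0141) and Socs2 at -1.59 (edgeR adjusted p = 0.0254), within ranges over the alternatives of 0.0141 to 0.666 and 0.0254 to 0.966.

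**Figure D4:**
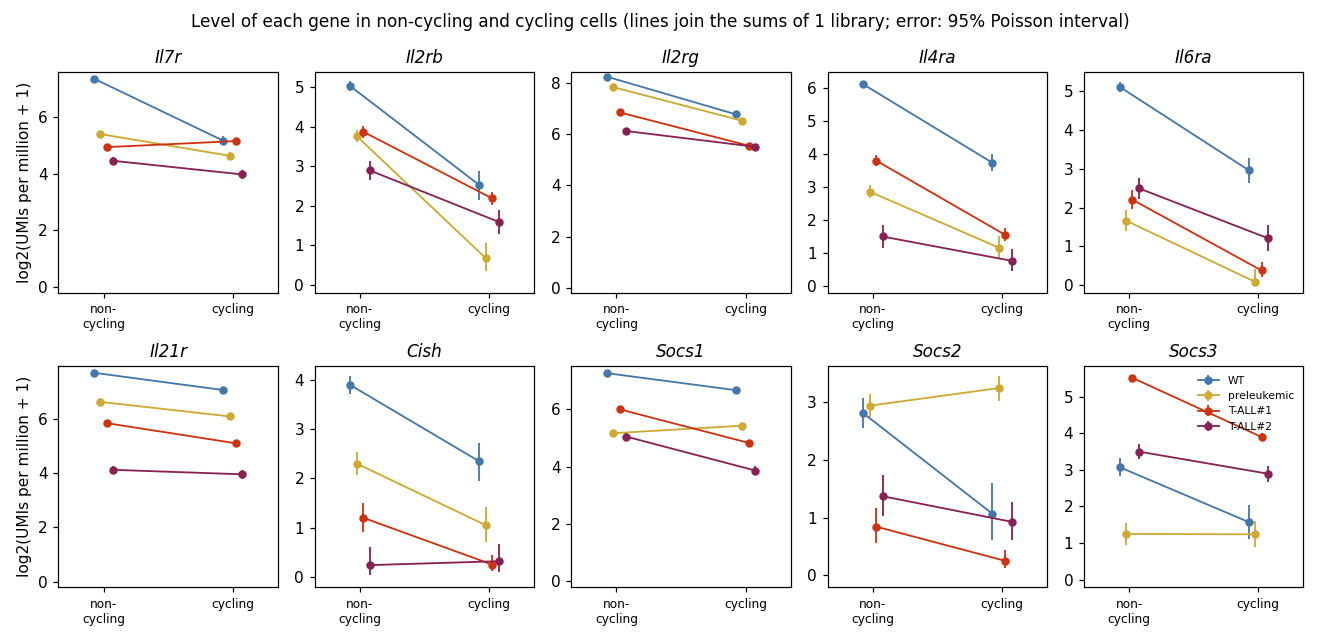
Level of each gene in non-cycling and cycling cells, as log2 of CPM plus 1 (points, summed cells of 1 library, joined by a line; error bars, 95% Poisson intervals). All 4 lines fall for Il2rb, Il2rg, Il4ra, Il6ra, Il21r and Socs3, the PL line of Socs3 being almost level (1.38 to 1.36 CPM), and the T-ALL#1 line of Il7r rises from 29.6 to 34.5 CPM.

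Other genes of cytokine signalling were read from lists, also chosen with earlier results of these data known. Their counts stand beside 27.9% of all genes lower and 26.4% higher in cycling cells. The list of receptor chains is wider than the family described above, as it also holds Il18r1, Il1rl1, Il17ra, Kit and Flt3. Of 23 other receptor chains, 17 were tested between cycling and non-cycling cells, and 12 were lower and 0 higher, with a median log2 difference of -0.79. The largest was Il18r1, a chain of the IL-18 receptor, at -3.85 (SE 0.386, edgeR adjusted p = 0.000659), followed by Il6st, which encodes gp130, at -1.09 (SE 0.180, edgeR adjusted p = 0.00307). All 11 JAK and STAT genes were lower in cycling cells, with a median log2 difference of -0.81, Stat4 at -1.81 (SE 0.211, edgeR adjusted p = 0.000952) and Jak1, the kinase that pairs with most of these receptors, at -1.03 (SE 0.117, edgeR adjusted p = 0.000901). Of 14 other inhibitors, 2 were lower (Cblb and Cbl) and 1 higher (Pias2), both shares being under those of all genes. Of 10 cytokine target genes, 4 were lower and 1 higher, Ccnd2 having the largest log2 difference at -1.75 (SE 0.301, edgeR adjusted p = 0.00386).

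In S1pr1-detected cells, where 8.75% of all genes were higher and 11.4% lower, 10 of 19 other receptor chains were higher and 1 lower, with a median log2 difference of 0.58, led by Il1rl1, the IL-33 receptor, at 3.86 (SE 0.633, edgeR adjusted p = 0.000471). Il1rl1 was scarce, at 0.250, 1.93, 0.0989 and 0 CPM over all cells of WT, PL, T-ALL#1 and T-ALL#2. Of the 11 JAK and STAT genes, 5 were higher and 0 lower, among them Jak3, the partner of the common gamma chain, at 1.26 (SE 0.232, edgeR adjusted p = 0.00102). Of the 14 other inhibitors, 2 were higher, and of the 10 target genes 2 were higher, Pim2 at 1.63 (SE 0.290, edgeR adjusted p = 0.000824) and Mcl1 at 0.43 (SE 0.107, edgeR adjusted p = 0.00814). Between double-positive and Il2ra-detected double-negative cells, 1 JAK or STAT gene was higher (Stat5b, 0.56, SE 0.112, edgeR adjusted p = 0.0479), 2 target genes were higher (Bcl6 and Mcl1) and 1 lower (Ccnd2). The 15 other receptor chains and 14 other inhibitors tested there held 0 edgeR calls, with 9 and 4 genes at an unadjusted p under 0.05 and 1 DESeq2 call each. Between Il2ra-detected and undetected double-negative cells, 0 of the 53 genes of these lists tested were called by edgeR, with 13 at an unadjusted p under 0.05 and 1 called by DESeq2. Of 8 ligand genes, 1 (Il2) had enough UMIs to be tested, and neither edgeR nor DESeq2 called it in any of the 4 comparisons, with unadjusted p of 0.05 or more in each.

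Of 9680 genes with at least 5 CPM in PL or WT, 5.13% were at least 2-fold higher in PL than in WT and 5.89% lower. Of the 11 JAK and STAT genes, 4 were higher by this fold and 0 lower. Stat5a was at 354 against 50.2 CPM and Stat3 at 228 against 55.4 CPM. From PL, 8 of the 11 were lower in T-ALL#1 and 10 of the 11 in T-ALL#2. Of the other receptor chains above 5 CPM, 5 of 16 were higher and 0 lower in PL than in WT, including Il12rb2 at 91.3 against 2.95 CPM. Against PL, 10 of 17 such chains were lower and 2 higher in T-ALL#1, and 12 of 17 lower and 2 higher in T-ALL#2. With TMM scaling, the lower chains numbered 8 in T-ALL#1 and 11 in T-ALL#2. Of all genes, 13.3% were lower in T-ALL#1 and 28.5% in T-ALL#2 than in PL, and 9.33% and 14.5% with TMM scaling. The Il2ra gene, which encodes the IL-2 receptor alpha chain, was at 39.8 and 40.5 CPM in WT and PL and at 204 and 184 CPM in T-ALL#1 and T-ALL#2. The 14 other inhibitors held 0 genes past this fold in PL against WT, 1 lower gene in T-ALL#1 and 7 in T-ALL#2 against PL. Of 9 target genes above 5 CPM, 4 were lower in PL than WT, and against PL 2 were lower in T-ALL#1 and 5 in T-ALL#2. With TMM scaling the genes lower in T-ALL#1 than in PL numbered 6 (JAK and STAT), 1 (inhibitors) and 2 (targets), and those lower in T-ALL#2 numbered 8, 3 and 3. Among them Bcl2, which IL-7 receptor signalling is known to raise, was at 249, 89.2, 22.3 and 13.7 CPM in the order WT, preleukemic, T-ALL#1 and T-ALL#2.

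Over the 20 sums of library and gate, the genes with the pattern most like each member were sought among 7748 genes with a mean of at least 10 CPM. Il2rg was most like Arhgdib (Pearson r = 0.983), and Il21r was most like Nabp1 (r = 0.983) and Sp3 (r = 0.981). Cish was most like Tmem64 (r = 0.955), Il4ra like Ppp1r16b (r = 0.942), Socs1 like Aebp2 (r = 0.934) and Socs3 like Hes1 (r = 0.899). The best matches were lower for Il6ra (Ephx1, r = 0.892), Il2rb (Rnh1, r = 0.875) and Il7r (Snx2, r = 0.818). These values describe sums that share 4 libraries and their depths, and Socs2 was below the level set for the comparison.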

How the data were processed

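The authors deposited raw UMI counts per gene and barcode. Per the file headers, these were written by Cell Ranger 3.0.2 (WT, preleukemic, T-ALL#1) and Cell Ranger 4 (T-ALL#2), and the labels name build mm10. More than 1 version of the 3′ chemistry is named without assignment to libraries. The T-ALL#2 limit was the 99th percentile of its top 10000 barcodes divided by 10. UMIs were summed per library and cell group. The comparisons within libraries used the quasi-likelihood test of edgeR 4.0.16 (TMM factors, expression filter, library as block) on sums of at least 20 cells, with p-values adjusted over all genes by Benjamini-Hochberg. The block was used because both sums of a library come from 1 capture. Such p-values measure the spread over 4 libraries of different groups, which may be technical. DESeq2 1.42.0 was an alternative. The fits were tested on simulated data. Doublets were limited only by the alternative with an upper limit on genes (mean plus 3 SD). Coordinates came from GENCODE M21 and promoters from RefSeq. All 10 members were named, with up to 3 called genes of largest difference per list and comparison. The members and lists were chosen with earlier results of these data known.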

Additional observations from a re-analysis of the deposited data

Results flagged for a closer look

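The following members moved in opposite directions in different groups, each beyond its counting interval. The differences between groups were not tested, since WT and the preleukemic group hold 1 library each. The values are log2 ratios of summed CPM within a library.

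Socs1 was lower in cycling than in non-cycling cells of WT (-0.60), T-ALL#1 (-1.20) and T-ALL#2 (-1.24) and higher in those of PL (0.27). Socs2 was lower in cycling cells of WT (-2.45, on 10 UMIs in cycling cells) and higher in those of PL (0.35). In S1pr1-detected against undetected cells, Socs1 was lower in WT (-1.27) and higher in PL (0.44). Socs2 did the reverse, at 1.34 in WT and -1.84 in PL, the latter on 3 UMIs in S1pr1-detected cells.

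Socs3 was lower in double-positive than in Il2ra-detected double-negative cells of WT (-2.77, with 23 UMIs in 13 of 54 double-negative cells) and higher in T-ALL#1 (1.12) and T-ALL#2 (1.01). Il7r was lower in Il2ra-detected than in undetected double-negative cells of WT (-0.93) and higher in PL (2.22), where the undetected gate held 3520 cells, 63.1% of the library, against 385 cells in WT.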

How the results depend on the processing

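Of 443 values of members in the comparisons within libraries under other settings, 383 kept their side of the threshold, 36 lost it and 24 gained it, and none of those called changed direction. Without the replicate block the count of members called fell from 7 to 0 (cycling), 6 to 0 (S1pr1) and 2 to 0 (double-positive), the libraries then adding to the spread. In non-cycling cells with 1 coreceptor, 2 members were called by S1pr1. For double-positive cells, DESeq2 called 5, every gene with at least 1 UMI 6 and the upper limit on genes 1, and leaving out a library gave 0 to 3. For Il2ra in double-negative cells, DESeq2 called 1 and every gene with at least 1 UMI 7. Over all genes, those called for double-positive cells numbered 297, and 1157 with DESeq2, 1065 with every gene, 695 in non-cycling cells, 115 with the upper limit, 1 without the block and 2 to 419 with a library left out. Those called for Il2ra numbered 3, and 511 with DESeq2, 1097 with every gene, 0 without the block, 8 with the upper limit, 9 in thinned cells and 2 to 51 with a library left out. Those called for S1pr1 numbered 2299, and 576 in non-cycling cells, 383 with 1 coreceptor, 623 in thinned cells and 1 without the block. Those called for cycling numbered 6380, and 1366 without the block. Without cells bearing markers of other types, chosen after seeing the data, 5 members above 5 CPM were at least 2-fold lower in PL than WT (7 with those under 5 CPM) and 2 higher in T-ALL#1 than PL (3 with Il2rb, under 5 CPM). The shares of all genes past this fold were not counted in this setting. There the T-ALL#2 over PL ratios of Il6ra (0.705, 0.337 to 1.42, on 14 and 24 UMIs) and Socs2 (1.81, 0.430 to 8.73, on 6 and 4 UMIs) crossed to the other side of 1 and could not be told from 1. With a mean over cells, 2 members were higher and 1 lower in T-ALL#1 (3 lower with Cish and Socs2, under 5 CPM). Of 150 library ratios, 63 moved beyond their counting interval. Thinned cells and the limit of 2 S1pr1 UMIs left T-ALL#2 out of the S1pr1 comparison (17 and 12 cells). Cish and Socs2 rested on 8 to 44 UMIs per leukemia, which limits the precision of their ratios. The causes were not tested.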
